A study of Mus musculus with 8 samples.

Results

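The miR-34 family was examined in kidneys of male Akita mice (strain C57BL/6-Ins2Akita/J) and of male C57BL/6J control mice, 4 samples of each, every sample on an array of its own. The Akita allele is a dominant Ins2 mutation; misfolded proinsulin damages the beta cells of the pancreas, and the mice become diabetic. The controls are called Mock in the sample titles, and the labels do not say whether a mock treatment was given. All 8 samples carry the age 36, without a unit, and no further treatment is labelled in either group. Members were chosen by name, as the non-control probes annotated to mmu-miR-34a-5p, mmu-miR-34b-5p, mmu-miR-34b-3p, mmu-miR-34c-5p or mmu-miR-34c-3p. This gave 5 of the 1881 miRNAs on the array and 10 of its 4415 probes. The choice of these names used no measured value, but it was made with earlier results of these data known.

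The genes of the miR-34 family are known as direct transcriptional targets of the tumour suppressor p53, which binds near their promoters when DNA is damaged or a cell is otherwise stressed. Their mature miRNAs pair through the seed, a short stretch near the 5′ end, with mRNAs of cell cycle and survival genes and lower their output. The miR-34a gene stands alone and is the broadly expressed one, whereas miR-34b and miR-34c are cut from one transcript that is known best from multiciliated epithelium, together with the related miR-449 cluster.

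In RefSeq (GRCm38.p6), 4 of the 5 members had a mature sequence, and mmu-miR-34c-5p had none in that table. They are shown because a shared seed makes the 5p members a family, while the 3p members share a different one. The bases after the seed are what the probes tell apart. Capitals mark the seed, bases 2 to 8 from the 5′ end.
mmu-miR-34a-5p: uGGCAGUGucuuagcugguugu
mmu-miR-34b-5p: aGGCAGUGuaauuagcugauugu
mmu-miR-34b-3p: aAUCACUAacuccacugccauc
mmu-miR-34c-3p: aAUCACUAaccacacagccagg
The seed GGCAGUG was held by 4 of the 1679 mature mouse miRNAs in that table, namely mmu-miR-34a-5p, mmu-miR-34b-5p, mmu-miR-449a-5p and mmu-miR-449c-5p. The seed of the opposite arm, AUCACUA, was held by 2, mmu-miR-34b-3p and mmu-miR-34c-3p.

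The hairpins are shown to place the probes on them. Capitals mark the bases with which the longer array probe for the 5p arm pairs without a mismatch.
Mir34a: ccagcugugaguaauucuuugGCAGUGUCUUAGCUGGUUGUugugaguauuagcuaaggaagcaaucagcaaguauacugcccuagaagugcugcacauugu
Mir34b: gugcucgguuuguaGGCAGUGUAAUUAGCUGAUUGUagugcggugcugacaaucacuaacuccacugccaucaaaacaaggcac
Mir34c: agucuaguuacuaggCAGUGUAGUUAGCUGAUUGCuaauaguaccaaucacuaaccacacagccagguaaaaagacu
Mir34a lies on the plus strand of chromosome 4, between Gm13067 and Gpr157, and overlaps no other gene of the RefSeq table. Mir34b and Mir34c lie on the minus strand of chromosome 9, 451 bases apart, inside the spans of both Hoatz and Btg4; whether that is exon or intron was not looked up. The array annotation, in mm9, maps the longer miR-34a-5p probe to chr4:149442585-149442603 on the plus strand and the longer miR-34c-5p probe to chr9:50911155-50911173 on the minus strand. Each of these annotated intervals is 1 base shorter than its probe.

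Each member had 2 probes, a longer and a shorter form of one sequence, so they are not independent of each other. The longer probes of miR-34b-5p and miR-34c-5p are printed because they are the closest pair in the family. Capitals mark the bases that would not pair with the other gene's hairpin at its best matching position.
A_54_P2446, for mmu-miR-34b-5p: AcaatcagctaaTtacactgcc
A_54_P1248, for mmu-miR-34c-5p: GcaatcagctaaCtacactg
Both probes of miR-34b-5p had 2 mismatches to the Mir34c hairpin at best, and both probes of miR-34c-5p had 2 to Mir34b. The probes of miR-34a-5p stood further off, with at least 8 mismatches to Mir34b and 9 to Mir34c. Cross-hybridisation between miR-34b-5p and miR-34c-5p was not tested.

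Signals are given as log2 of the processed spot intensity, averaged over spots, divided by each array's 75th percentile, and summed over a miRNA's probes. Above background means, for a miRNA on an array, that 1 or more of its probes had the well-above-background flag on a share of at least 0.5 of the spots. The 285 miRNAs above background on all 4 arrays of a group were tested by limma's two-sided test, and p-values were adjusted over these 285 (Benjamini-Hochberg). A call is an adjusted p under 0.05, and fold changes are Akita minus control on the log2 scale. Whether every sample is a separate mouse is not labelled, and a p-value here reflects sample-to-sample spread, which may be technical. Kidney tubule miRNAs fitted the labelled tissue: 7 of 8 listed ones were above background on all arrays, beside 257 of all 1881. Of 6 miRNAs of other organs, 4 were above background on no array. That was also so for 1531 of all 1881, so their absence does not stand out. The other 2, miR-122-5p and miR-1a-3p, were above background on 5 and 6 arrays. Before scaling the Akita arrays were dimmer, with a 75th percentile of 421 ± 35.2 against 507 ± 10.3 in control (SD, n = 4 each), 17.0% lower (exact permutation p = 0.0286, two-sided). The labelling spike-ins differed less, at 1754 ± 78.5 in Akita and 1792 ± 59.6 in control (exact permutation p = 0.46). The 95th percentile of the negative-control spots was 6.98 ± 1.40 and 7.09 ± 0.30 (exact permutation p = 0.86). The cause of the dimmer signal was not tested. The Akita arrays lay in row 2 and the control arrays in row 1 of 1 slide, so the group cannot be told apart from the slide row.

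Of the 5 members, 2 were above background on all 8 arrays, miR-34a-5p and miR-34b-5p, and both were higher in Akita kidneys. The same call, in either direction, was made for 42 of the 285 tested miRNAs (14.7%), and a call of higher in Akita for 24 (8.42%). Over all tested miRNAs the log2 fold change had a median of 0.06. MiR-34c-5p was above background by this rule on 1 array, and the 3p members on none. Feature Extraction's own gene detection flag was set for miR-34c-5p on all 8 arrays and for the 3p members on none. In whole kidney RNA, more cells of a type and more RNA per cell cannot be told apart.

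MiR-34a-5p, the member with a gene of its own, had log2 signals of 11.55, 11.23, 11.37 and 11.58 in Akita kidneys, against 10.05, 10.25, 10.05 and 10.15 in control kidneys. All 4 Akita kidneys lay above all 4 controls, with a gap larger than the spread within either group. The mean was 11.43 ± 0.16 for Akita kidneys and 10.12 ± 0.10 for controls (SD, n = 4 each). It rose 2.48-fold, by 1.31 on the log2 scale (SE 0.09, 95% confidence interval 1.10 to 1.53, limma adjusted p = 5.4e-05), which was the largest fitted log2 change of the 285 in this setting. Complete separation of the groups with Akita on top was seen in 39 of the 285 tested miRNAs (13.7%).

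**Figure D1:**
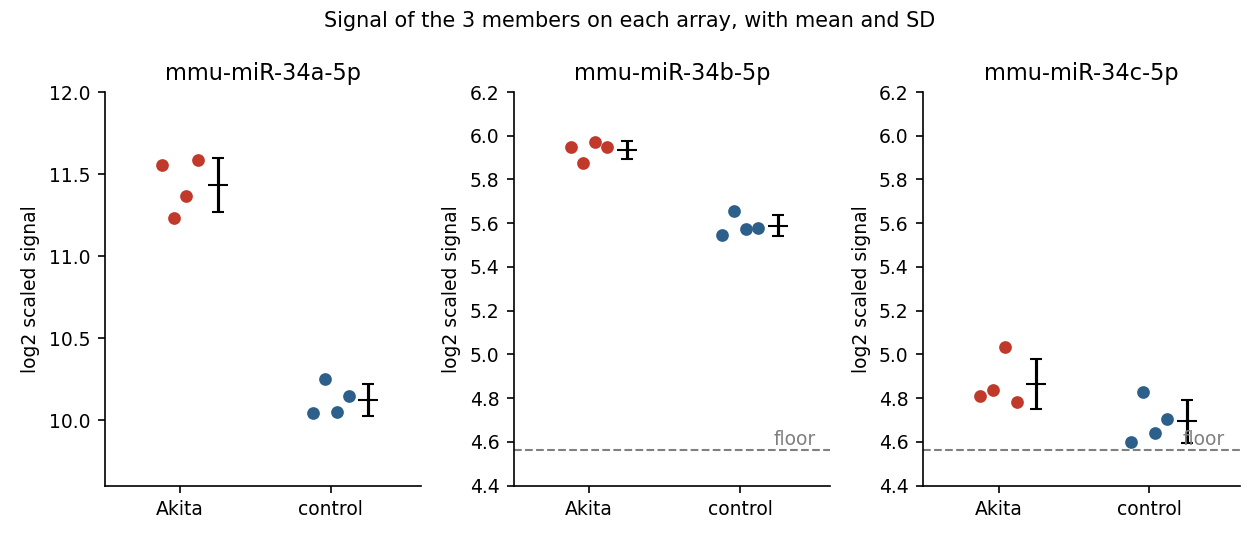
Log2 scaled signal (y axis) of mmu-miR-34a-5p, mmu-miR-34b-5p and mmu-miR-34c-5p in Akita and control kidneys, 1 point per array, with the group mean and SD as a bar beside the points and the floor of 4.56 as a dashed line; the left panel has its own y range. The groups are apart for the 34a and 34b members, and the points of the 34c member overlap just above the floor.

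The separation was also present in the signals before any scaling, which summed to 2272 to 2908 in Akita and 1135 to 1331 in control, although the Akita arrays were the dimmer ones. Every used spot of both probes was flagged well above background on every array. Spots of 1 probe on 1 array varied with a coefficient of variation of 2.29% to 6.10%.

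Each probe of miR-34a-5p gave the change by itself. The 19-base probe A_54_P2498 had scaled signals of 1249, 989, 1112 and 1279 in Akita kidneys, against 434, 500, 432 and 468 in control kidneys. The 20-base probe A_54_P2499 had 1755, 1419, 1532 and 1792 in Akita kidneys, against 623, 719, 627 and 665 in control kidneys. In both, the lowest Akita array was well over the highest control array. How many of all tested probes separated in this way was not counted. The probe fits, adjusted over 511 probes, gave log2 fold changes of 1.33 (SE 0.10) and 1.30 (SE 0.09), each with an adjusted p of 4.4e-05. Among all tested probes, 30 of 511 (5.87%) were called higher in Akita. Within an array the longer probe read 1.38 to 1.44 times the shorter one in Akita and 1.42 to 1.45 times in control.

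The size of the miR-34a-5p change depended on how arrays were scaled, and its direction did not in any setting run. Leaving out 1 array at a time gave 1.26 to 1.38, all called. With no scaling it was 1.04 (adjusted p = 0.00012), and scaled to the labelling spike-ins it was 1.07 (adjusted p = 7.3e-05). The call was lost in 1 of 29 alternatives, cyclic loess over all probes, most of which are at background (0.49, SE 0.35, adjusted p = 0.55). Cyclic loess with its curves fitted on the probes above background, chosen after seeing that value, gave 1.29 (adjusted p = 2.0e-06).

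**Figure D2:**
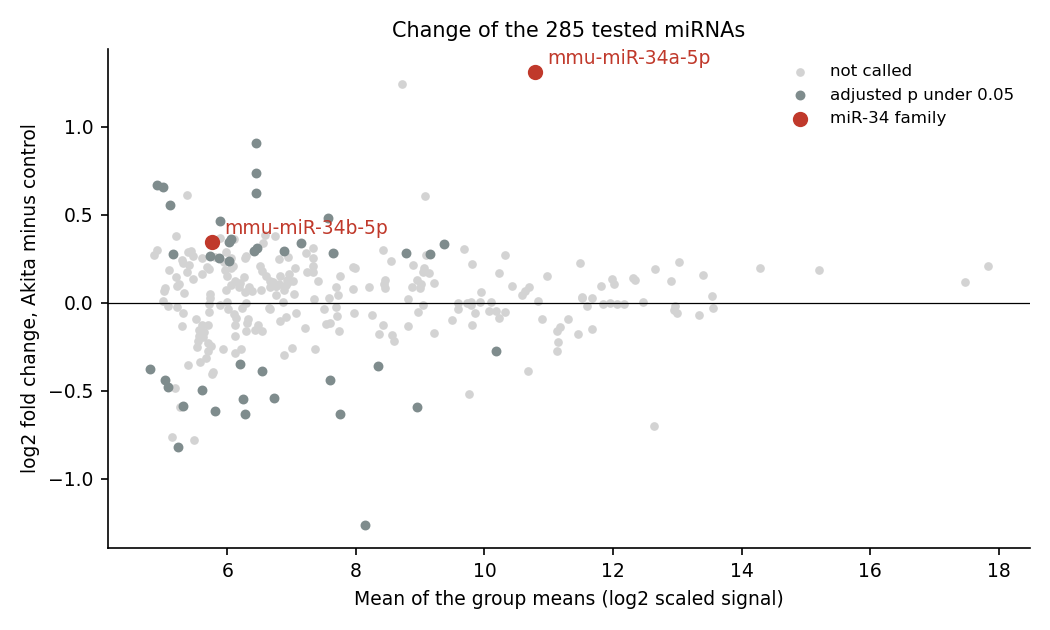
Log2 fold change, Akita minus control (y axis), against the mean of the group means in log2 scaled signal (x axis) for the 285 tested miRNAs, 1 point each, dark grey where called. MiR-34a-5p has the highest point at 1.31 and miR-34b-5p lies at 0.35 among dim miRNAs.

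MiR-34b-5p, the member from the chromosome 9 transcript with the higher detection, had log2 signals of 5.95, 5.87, 5.97 and 5.95 in Akita kidneys, against 5.55, 5.66, 5.57 and 5.58 in control kidneys. The Akita arrays were again all above the control arrays, by a smaller step and with little spread. The mean was 5.93 ± 0.04 for Akita kidneys and 5.59 ± 0.05 for controls (SD, n = 4 each). Its rise was 1.27-fold, 0.35 on the log2 scale (SE 0.06, 95% confidence interval 0.21 to 0.48, limma adjusted p = 0.0067).

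This call rested on 1 probe. The 22-base probe A_54_P2446 was flagged well above background on 60 of 60 spots in each group, with scaled signals of 42.7, 41.7, 41.8 and 43.2 in Akita, against 32.4, 33.0, 31.2 and 30.8 in control. It did not overlap between groups and was called higher (log2 fold change 0.41, SE 0.06, limma adjusted p = 0.0032). Such a separation with Akita on top was seen in 39 of the 285 tested miRNAs (13.7%) and was not counted over probes. Higher calls were made for 30 of 511 tested probes (5.87%). The 21-base probe A_54_P2445 was well above background on 18 of 60 spots in Akita and 12 of 60 in control and was not tested. Its scaled signals ran from 16.9 to 20.8 in Akita and from 14.4 to 17.5 in control and overlapped.

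Unlike that of miR-34a-5p, the signal of miR-34b-5p before scaling overlapped between groups, at 49.3 to 59.7 in Akita and 50.2 to 55.1 in control. Its log2 fold change was 0.07 with no scaling (adjusted p = 0.44) and 0.11 with the spike-ins as the reference (adjusted p = 0.27), and neither was called. With the percentile taken over all probes it was 0.44 (adjusted p = 0.15), and with each array centred on its median tested miRNA, an alternative chosen after seeing the data, 0.24 (adjusted p = 0.13). These scalings shift all miRNAs together: the median of all tested moved to -0.21 with no scaling, -0.18 with the spike-ins and 0.16 with the percentile over all probes. Relative to that median, miR-34b-5p stood 0.28 higher and miR-34a-5p 1.25 higher under each of 5 scalings by 1 factor per array. This sameness is fixed by construction, since 1 factor per array moves every miRNA alike, and is no further support. Over all alternatives miR-34b-5p was called in 22 of 29.

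**Figure D3:**
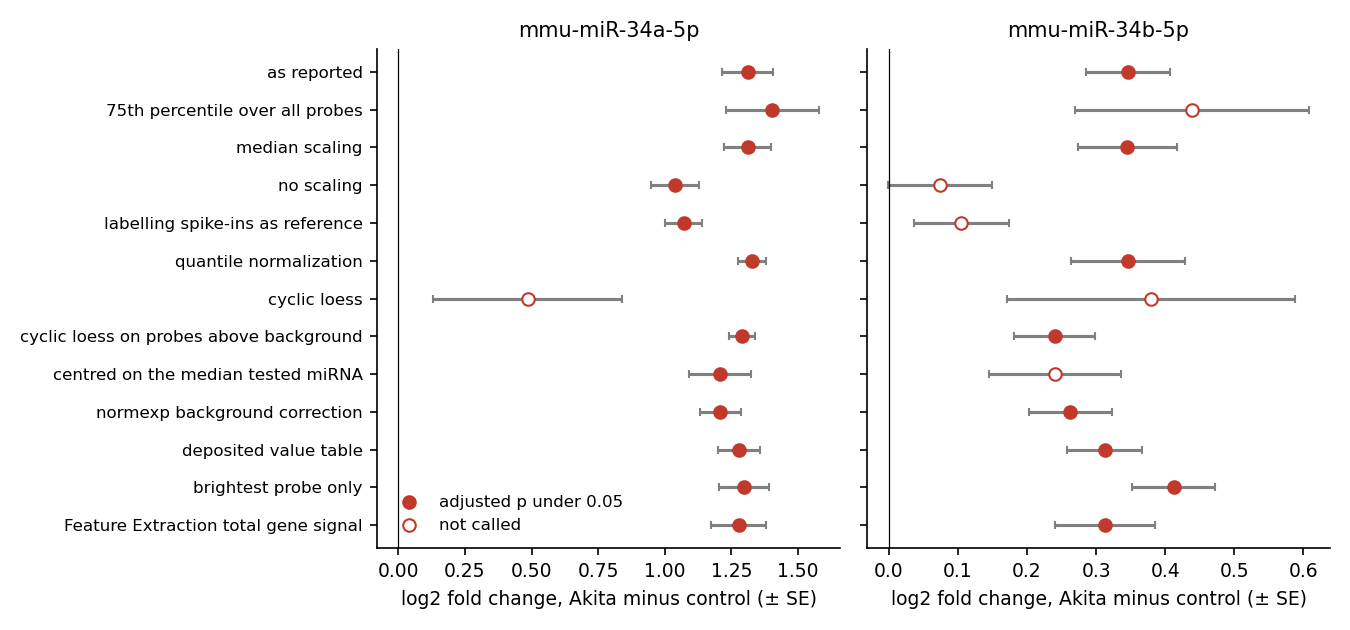
Log2 fold change, Akita minus control, with its SE (x axes, 1 range per panel) for mmu-miR-34a-5p on the left and mmu-miR-34b-5p on the right under 13 settings of scaling, background correction and probe summary, filled where the adjusted p was under 0.05. The 34a member is filled in all but cyclic loess over all probes, and the 34b member is open in 5 settings, among them no scaling at 0.07.

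A comparison of both members within each array needs no scaling factor. The log2 signal of miR-34a-5p minus that of miR-34b-5p was 5.61, 5.36, 5.40 and 5.64 in Akita kidneys, against 4.50, 4.60, 4.48 and 4.57 in control kidneys. All Akita arrays lay above all controls, with means of 5.50 ± 0.14 for Akita and 4.54 ± 0.06 for control (SD, n = 4 each). The change of miR-34a-5p exceeded that of miR-34b-5p by 0.97 on the log2 scale, or 1.95-fold (exact two-sided permutation p = 0.0286 over 70 splits, the smallest that 4 against 4 arrays can give). The difference in level between the members is no ratio of molecules, since their probes differ; the test concerns the difference between groups. Low signals near background can understate a change, and how much of the gap comes from that was not tested.

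**Figure D4:**
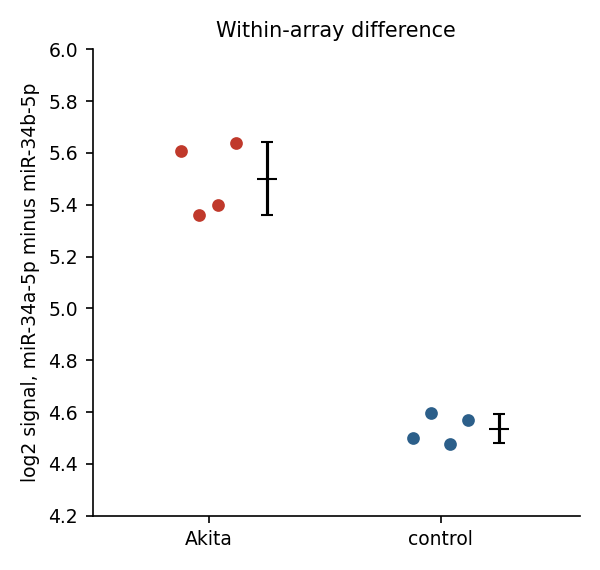
Log2 signal of miR-34a-5p minus that of miR-34b-5p (y axis) in Akita and control kidneys, 1 point per array, with group mean and SD as a bar. Akita arrays lie between 5.36 and 5.64 and control arrays between 4.48 and 4.60; the axis does not start at 0.

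MiR-34c-5p, which comes from the same transcript as miR-34b-5p, stayed close to the floor of 4.56, the level to which lower sums were set. Its log2 signals were 4.81, 4.84, 5.03 and 4.78 in Akita kidneys, against 4.60, 4.83, 4.64 and 4.70 in control kidneys. The groups overlapped, with control replicate 2 above 2 of the Akita arrays. It was above background on Akita replicate 2 only, at 8 of 15 spots of its longer probe, so it was not among the tested miRNAs. Its longer probe was well above background on 35.0% of spots in Akita and 26.7% in control, and its shorter probe on none. By the weaker flag for a signal significantly above background, 60 of 60 spots of the longer probe passed in each group. In a fit over all 1881 miRNAs with no filter, run after the data were seen, its log2 fold change was 0.17 (SE 0.08, 95% confidence interval -0.01 to 0.36, limma adjusted p = 0.38). That interval holds 0 as well as 0.35, the change of miR-34b-5p.

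The opposite arms were not well above background on any array. The weaker flag for a signal significantly above background was set on 4 to 16 spots a probe in Akita. In control it was set on 8 to 19, of 56 to 60 spots used a probe and group. MiR-34b-3p had scaled signals of 3.97 to 5.39 in Akita and 2.68 to 4.44 in control, and miR-34c-3p had -0.95 to 3.56 in Akita and -1.25 to 4.77 in control. Before scaling, the 95th percentile of the negative-control spots was 5.33 to 8.75 on Akita arrays and 6.80 to 7.49 on control arrays. No spot of their 4 probes was flagged well above background, all values were set to the floor, and no fold is given.

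**Figure D5:**
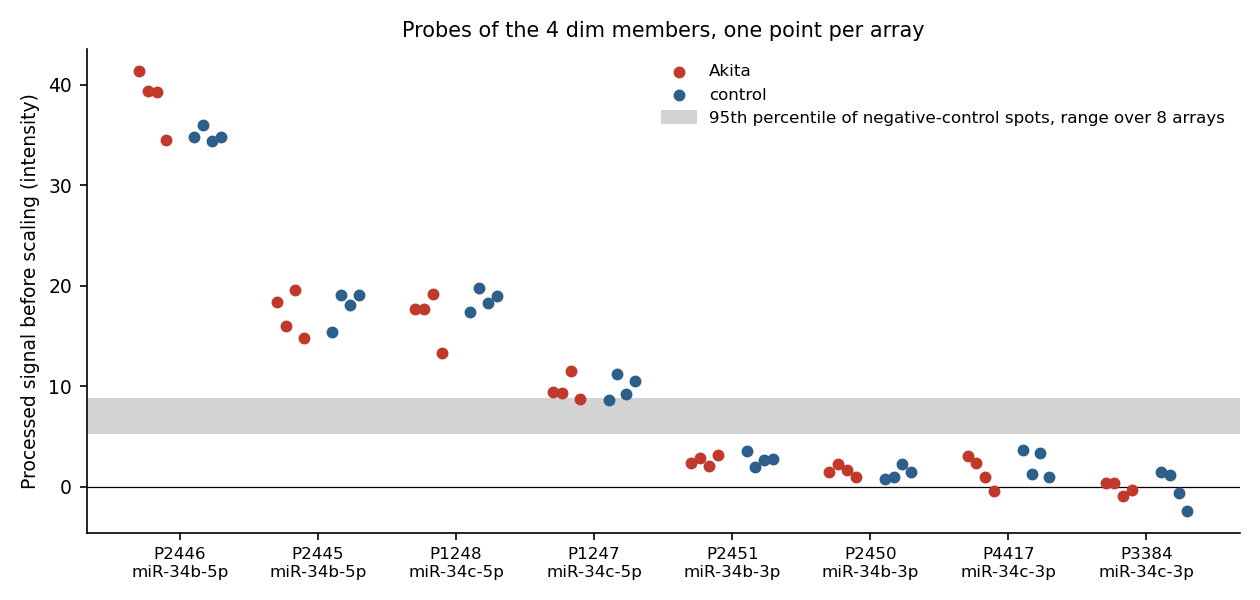
Processed signal before scaling (y axis, intensity) of the 8 probes of the 4 dim members, 1 point per array, Akita left of control within each probe. The grey band is the range of the negative-control 95th percentile, 5.33 to 8.75, taken over single spots, whereas each point is a mean over spots. The probes of the 3p members lie below the band, those of miR-34b-5p above it, and Akita and control points overlap in every probe on this unscaled axis.

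The seed relatives and passenger strand outside the rule were also not well above background. This held on all 8 arrays for miR-34a-3p, the opposite arm of the miR-34a hairpin, and for the 5 measured miR-449 forms, including miR-449a-5p and miR-449c-5p, which share the family seed. In the multiciliated list, miR-34b-5p, miR-34c-5p and these 2, 2 of 4 miRNAs were above background on no array, beside 1531 of all 1881. The other two are family members themselves, so a sum over the list would restate their values. The part of such cells in the miR-34b-5p result was not tested.

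The p53 link named for this family was set beside other miRNAs of the same pathway, in a list chosen with earlier results known. Of 14 miRNAs known as p53-induced or p53-processed, 13 were on the array and 12 were tested. Of these, 2 were called higher and 0 lower, beside 24 (8.42%) and 18 (6.32%) of all 285 tested. The median log2 fold change of the 12 was -0.002, beside 0.06 for all 285. The called ones were miR-200c-3p (0.28, SE 0.07, limma adjusted p = 0.032) and miR-141-3p (0.28, SE 0.08, limma adjusted p = 0.047), both known as guards of the epithelial state. Across 29 alternatives miR-200c-3p was called in 13 and miR-141-3p in 7, and neither was called with no scaling. With no scaling 8 of the 12 were called lower, as were 104 of all 285, and the list median of -0.27 stood beside -0.21 for all. The 4 brightest members, miR-22-3p, miR-192-5p, miR-23a-3p and miR-107-3p, were not called, with log2 fold changes of 0.13, -0.01, -0.01 and 0.03. MiR-15a-5p, also not called, was at -0.28 (limma adjusted p = 0.059). It was called lower in 9 of 29 alternatives. MiR-205-5p had the largest fitted change of the list, 0.61, with a wide spread (SE 0.35, limma adjusted p = 0.24). Of 4 miRNAs known to target p53 mRNA, 3 were tested and 0 called, beside 42 of all 285 (14.7%). They were miR-125b-5p at -0.22 (limma adjusted p = 0.059), miR-30d-5p at 0.17 and miR-25-3p at -0.06. With no scaling 2 of these 3 were called lower, again beside 104 of all 285.

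Likeness to each called member was measured as the root mean square difference over the 8 arrays after centring each miRNA on its own mean, in log2 units. The 5 tested miRNAs most like miR-34a-5p were miR-193b-3p (0.30), miR-129-1-3p (0.36), miR-551b-3p (0.36), miR-455-3p (0.37) and miR-455-5p (0.39), against a median of 0.65 over all. Their log2 fold changes were 0.56 to 0.74, beside 1.31 for miR-34a-5p; that they are higher in Akita follows from the choice by likeness and is no further support. Of these, miR-551b-3p was at the floor on all 4 control arrays and entered the test through the Akita arrays alone, so its fitted change of 0.67 depends on the floor. MiR-129-1-3p and miR-455-5p were above background on 7 and 6 of the 8 arrays, so each also entered through 1 group alone. Their control means of 4.67 and 4.83 were near the floor of 4.56. For miR-34b-5p the closest were miR-200c-3p (0.049), miR-7671-3p (0.055), miR-139-5p (0.069), miR-222-3p (0.070) and miR-141-3p (0.072), against a median of 0.20. The 5 had log2 fold changes of 0.26 to 0.30, a direction that the choice by likeness fixes, and miR-200c-3p and miR-141-3p are the p53-induced ones above. Like miR-34b-5p, all 5 lost their call with no scaling, where they lay between -0.01 and 0.02, and miR-7671-3p was called in 9, miR-139-5p in 10 and miR-222-3p in 13 of 29 alternatives.

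Leukocyte miRNAs moved with the groups in the opposite direction. Of 6 listed ones 5 were called lower in Akita, beside 18 of all 285 tested (6.32%), with a median log2 fold change of -0.54 over the 6, and their summed scaled signal was 732 to 872 in Akita and 1069 to 1232 in control, without overlap. The erythrocyte list summed to 630 to 844 in Akita and 96.5 to 1305 in control, overlapping. The part of blood cells in the miR-34a-5p and miR-34b-5p results was not tested.

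In the authors' deposited table of linear ratios, miR-34a-5p was listed at 1.68, 1.41, 1.58 and 1.68 in Akita kidneys, against 0.61, 0.71, 0.64 and 0.66 in control kidneys. In the authors' deposited table, miR-34b-5p was at 1.10, 1.09, 1.19 and 1.07 in Akita, against 0.85, 0.93, 0.91 and 0.89 in control. Neither overlapped between groups there. That was also so, with Akita higher, for 1498 of the 1902 entries in that table (78.8%), the undetected 3p members included. Nothing is therefore read from this separation, and the table served only among the alternatives. That table lists the same values for both 3p members, for which Feature Extraction's total gene signal was 0.1 on all 8 arrays. Its column medians were 1.03 to 1.22 in Akita and 0.70 to 0.97 in control, and the sources used here do not give how its array factors were set.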

How the data were processed

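Kidney total RNA (100 ng) was labelled with Cy3 and hybridised to 1-colour Agilent mouse miRNA arrays, per the labels' protocols. The deposited scanner files hold spot intensity after background subtraction, extracted with Agilent Feature Extraction 12.0.3.1 per the file headers; deposited p-values per spot against background accompany the flags and were not used in tests. The authors' deposited value table holds 1 ratio for each miRNA on each array. Set against the scanner files, these were total gene signals scaled by 1 factor an array and by 1 centre a miRNA. It served as an alternative.

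Outlier-flagged spots (2.03% to 3.02%) were left out and none was saturated. The 75th percentile was taken over 451 probes above background on all 8 arrays, and summed signals under 23.65 (log2 4.56) were set to that floor. limma 3.58.1 in R 4.3.3 (lmFit, eBayes) was tested on simulated data. The number of arrays limits precision. Arrays of a group correlated at 0.986 to 0.997. Same-numbered samples of the 2 groups lay in the same slide column and deviated together with r = 0.10, -0.30, 0.34 and -0.35. No label says that the numbers pair them, and so few values cannot exclude a pairing.

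The named miRNAs are the 5 members, their seed relatives, up to 4 members of each list by mean signal, called list members, and the 5 most alike in pattern to each called member. MiR-30d-5p, miR-25-3p and miR-125b-5p are the tested ones of their list. MiR-15a-5p and miR-205-5p were added after the data were seen, for the largest changes not called in the p53-induced list. Members, lists and rules were chosen with earlier results of these data known.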

Additional observations from a re-analysis of the deposited data

How the results depend on the processing

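Some alternatives could not move the log2 fold change of miR-34a-5p. It stayed 1.31 by construction where only the filter, floor, eBayes options or replicate block differed. Its direction in those settings is no further support. MiR-34a-5p was higher in all 29 alternatives (0.49 to 1.40 on the log2 scale) and called in 28, and it had the largest rise in 23. The exception was cyclic loess over all probes, a planned setting, with 0.49 (adjusted p = 0.55), miR-34b-5p at 0.38 (adjusted p = 0.47), their within-array difference at 0.11 (exact permutation p = 0.91) and 2 miRNAs called; fitted on the probes above background, an alternative added after seeing the data, it gave 72 calls and both members were called. MiR-34b-5p was not called with the percentile over all probes (0.44), no scaling (0.074), spike-in scaling (0.11) or centring on the median tested miRNA (0.24, added after seeing the data). With a floor 4 times higher all its arrays are at the floor by construction, so its change is 0 (adjusted p = 1). Replicate numbers mark a shared slide column, and no label says that they pair the samples. With the replicate block the change of miR-34b-5p stayed 0.35 with a limma adjusted p of 0.084, and miR-34a-5p stayed called. The count of calls fell to 25 (11 higher, 14 lower). The within-array difference stayed 0.97 with an exact permutation p of 0.125, the smallest that 4 pairs can give. Against 42 calls (24 higher, 18 lower) there were 14 (10 and 4) with the percentile over all probes, 109 (5 and 104) with no scaling, 114 (7 and 107) with spike-ins, 65 (33 and 32) with quantile normalization, 89 (81 and 8) with normexp, 21 (9 and 12) with Feature Extraction's total gene signal, 6 with no filter and 9 (4 and 5) with the higher floor. Why the count moved was not tested. Leaving out 1 array, with scaling, filter and floor kept from all 8, gave 20 to 40 calls, 1.26 to 1.38 for miR-34a-5p, 0.33 to 0.37 for miR-34b-5p (largest adjusted p = 0.035) and 0.92 to 1.01 for their difference, all called. The longer probe of miR-34b-5p lost its call with no scaling (0.14), spike-ins (0.17) and the percentile over all probes (0.50). Signal over background limits the dim members: 3 of the 5 have no tested change.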
